A study of Caenorhabditis elegans with 24 samples.

Results

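A set of 61 genes of the worm Caenorhabditis elegans, out of 20687 worm genes in the deposited table, had their highest level in the embryo at 270 or 330 min after the 4-cell stage and were low both before and after. Members were chosen from the mean CPM (a gene's count scaled to a common worm total per library) of the 3 libraries of each stage. The highest stage mean had to fall at 270 or 330 min and reach 100 CPM, and that mean plus 1 had to be at least 4 times the mean plus 1 at both 120 and 500 min. The highest mean fell at 270 min in 25 members and at 330 min in 36. Of 2942 genes highest at either stage, 605 reached 100 CPM, 195 of these passed the fold over 120 min, 100 passed the fold over 500 min, and 61 passed both. The levels at 120, 270, 330 and 500 min therefore made the set, and differences between these stages are given below as descriptions of members, which support nothing further.

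Embryos of the strain N2, the wild type, were taken from adults that had been cut open, using a mouth pipette, and staged at 8 times: 60, 120, 180 and 225 min before the peak, 270 and 330 min at it, then 410 and 500 min. No embryo carried a mutation or received a treatment, so the groups are the 8 stages, each with 3 libraries of 50 pooled embryos. Messenger RNA was measured by CEL-Seq, which reads the 3′ end of polyadenylated transcripts. The labels give the first and second replicate of each stage the same running sample number, and nothing states that the 3 libraries came from separate collections, so p-values measure the spread between these samples, which may be technical.

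Over the stages that surround this peak, a C. elegans embryo goes from a ball of dividing cells to an elongating worm. Epidermal cells enclose the body, epithelia deposit apical extracellular matrix on their outer surface and basement membrane on their inner surface, and neurons take on their final identities and send out axons. Basement membranes are sheets of laminin, collagen IV, nidogen and related proteins, whereas the first apical matrices are temporary layers of zona pellucida domain, leucine-rich repeat and fibrillin-like proteins that precede the cuticle. Insulin-like peptides and DSL proteins (ligands of the Delta, Serrate and LAG-2 kind) are secreted or surface signals. Hedgehog-related proteins are placed beside them here, and whether they act as signals was not tested.

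Worm totals per library ran from 172620 to 977908 counts, and 1 count stood for 1.02 to 5.79 CPM. The highest count of a member was 878, and 11 members exceeded 500 counts in some library, where values near the highest in the table may be compressed. Those 11 were idh-1, fasn-1, sym-1, fbn-1, wrt-10, ces-2, bed-2, lam-3, R148.5, nid-1 and M03D4.4. All 61 members were protein coding and entered the fit, and 22 overlapped another gene, so their counts are uncertain because the strand of counting is not given. On the first principal component the third replicate of 270 min lay at 14.6, against -5.48 and -5.19 for the others of that stage, and the third replicate of 330 min at 29.41, against 40.52 and 47.79. These libraries lay towards each other. Summed yolk protein (vitellogenin) transcripts, made in the adult intestine, ranged from 0 to 1305 CPM and reached 759 CPM in the second replicate of 270 min and 1095 CPM in the second replicate of 330 min. Their part in the results was not tested beyond the values without those libraries given below. In whole embryos, a change in the number of cells of a type and a change of RNA per cell cannot be told apart.

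Together the 61 members took up 0.102% ± 0.018 (SD, n = 3) of worm counts at 60 min and 0.137% ± 0.021 at 120 min. Their share was 0.582% ± 0.059 at 180 min and 1.245% ± 0.081 at 225 min. It stood at 2.058% ± 0.038 at 270 min and 2.044% ± 0.048 at 330 min, then at 1.055% ± 0.047 at 410 min and 0.247% ± 0.018 at 500 min. The 3 libraries of each stage lay close together, and no library of 270 or 330 min fell below any library of another stage.

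**Figure D1:**
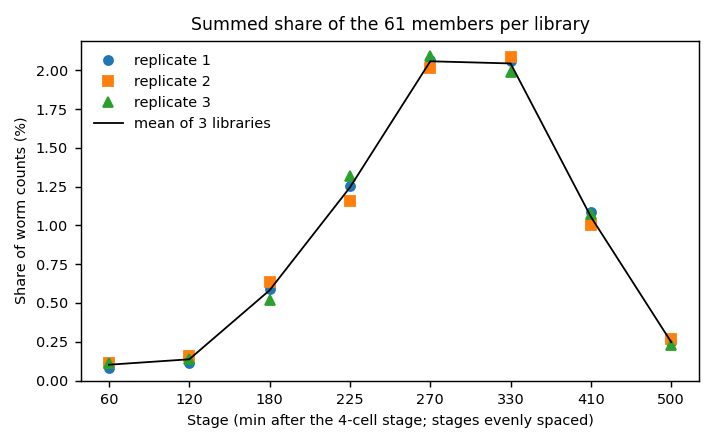
Share of worm counts (%) taken by the 61 members together in each of 24 libraries, against stage in min after the 4-cell stage (stages drawn at even spacing); symbols are replicates and the line joins the stage means. The share is near 0.1% at 60 min, stands at 2.058% and 2.044% at 270 and 330 min and is 0.247% at 500 min.

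Members differed in how wide their peak was. Expressed as a percentage of its own highest stage mean, the median member stood at 1.19% (60 min), 2.78% (120 min), 17.5% (180 min) and 48.4% (225 min) before the peak, and at 46.7% (410 min) and 11.2% (500 min) after it. A level of 50% or more of the peak was first met at 180 min by 7 members, at 225 min by 23, at 270 min by 24 and at 330 min by 7. It was last met at 270 min by 4 members, at 330 min by 31 and at 410 min by 26. A single stage at that level was found in 4 members, 2 stages in 16, 3 stages in 29, 4 stages in 9 and 5 stages in 3.

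**Figure D2:**
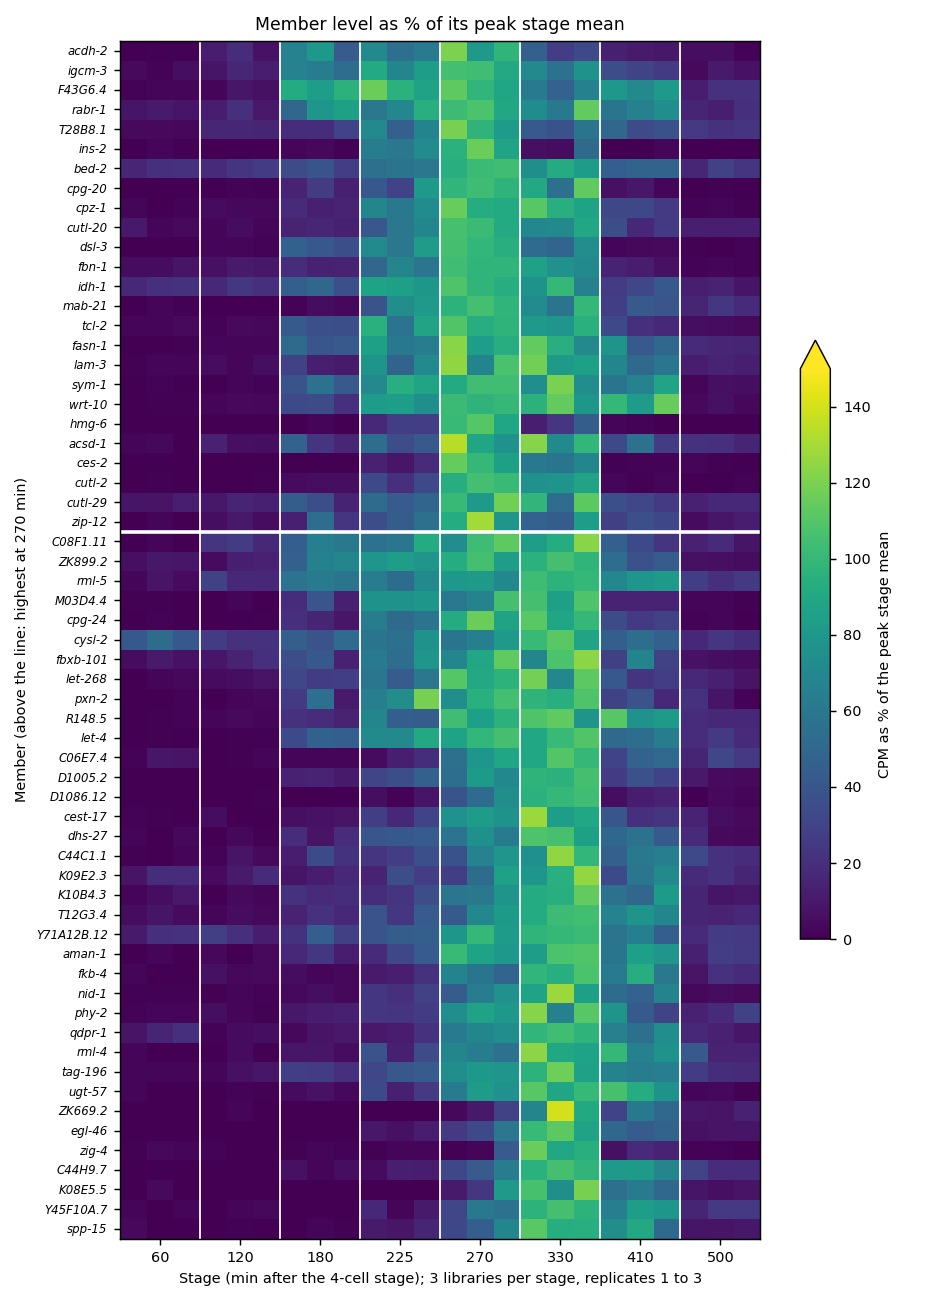
Level of each member in each library, as CPM in percent of that member's highest stage mean (colour); rows are members, highest at 270 min above the white line and at 330 min below it, and columns are the 3 replicates of each stage. At 60 and 120 min the rows are dark, and members highest at 330 min keep a median of 55.1% of their peak at 410 min against 31.3% for those highest at 270 min.

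The rule was also applied to 2 replicates and read in the remaining one. A left-out library may be a technical repeat of one used for choosing, because the replicates are not known to be separate collections. The counts that follow therefore describe how alike the libraries were and do not test the peak in independent embryos. With the first replicates left out, 62 genes were chosen, of which 58 were highest at 270 or 330 min in the left-out libraries and 47 met that and both folds there. With the second replicates left out, 54 of 56 chosen genes were highest at those stages and 45 met all 3 criteria. With the third replicates left out, 57 of 65 chosen genes were highest at those stages and 48 met all 3 criteria. The fold over 500 min was met in the left-out libraries by 53, 47 and 55 genes of these choices, fewer than the fold over 120 min, met by 59, 53 and 61.

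The thresholds divided genes of like values. At the level threshold, zip-12 (101.0 CPM) and C08F1.11 (102.2 CPM) lay just inside, and R119.5 (91.65 CPM) and F28B4.4 (91.08 CPM) just outside. At the fold over 120 min, cysl-2 (4.31) and bed-2 (4.42) lay inside, and zmp-2 (3.8) and Y9D1A.1 (3.47) outside. At the fold over 500 min, rml-5 (4.01) and C44C1.1 (4.03) lay inside, and let-653 (3.94) and sqv-5 (3.86) outside. Scaling CPM with TMM factors (trimmed mean of M-values, which were lowest at 500 min) left 37 genes that met the rule, all of them among the 61.

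The rule used the levels at 270 and 330 min but did not set which is higher, and because it used them nothing is read from how many members passed between them. Of the 61 members, 9 were higher at 330 min and 7 were lower, and 45 did not pass (edgeR, adjusted p below 0.05 over 8279 genes), where 6.17% of all genes tested were higher and 1.49% lower. The median log2 change was 0.14 among members and 0.05 over all genes tested. On the scale of the spike-ins the test called 2 higher and 0 lower, with 7 and 2 at an unadjusted p below 0.05, and the median of all genes was 0.31. Without the second replicates of all stages, 0 members passed in either direction, with 8 higher and 8 lower at an unadjusted p below 0.05, and DESeq2 on all libraries called 6 higher and 5 lower. Leaving out single libraries gave 3 higher and 3 lower without 270 min replicate 1, 2 and 4 without 270 min replicate 2, 11 and 7 without 270 min replicate 3, 3 and 6 without 330 min replicate 1, 4 and 4 without 330 min replicate 2, and 7 and 6 without 330 min replicate 3. With the 4 libraries richest in vitellogenin left out, 1 was higher and 3 were lower.

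The rule asks for a low level at 120 min and a peak later, with 60, 180, 225 and 410 min below that peak. The next 3 contrasts therefore tell when members were higher, not whether they had to be, and are not independent of the choice of members. Between 60 and 180 min, 45 members were higher and 2 lower, where 28% and 24.6% of all genes tested were, and the median log2 change was 2.80 among members and 0 over all genes. Between 180 and 225 min, 37 members were higher, where 3.07% of all genes tested were. In that step 0 were lower, also at an unadjusted p below 0.05 and by DESeq2, against 2.57% of all genes tested. The rule makes a fall before the peak unlikely, so nothing is read from this 0. The 37 became 22 without 225 min replicate 3, 15 without replicate 3 of every stage and 14 when scaled to the spike-ins. Between 225 and 410 min, on either side of the peak, 24 members were higher and 15 lower, where 31.3% and 23.4% of all genes tested were, shares close to those of the members (39.3% and 24.6%), with a median log2 change of 0.10 among members and 0.07 over all genes. Scaled by library size alone, the split was 20 higher and 21 lower, and scaled to the spike-ins it was 13 higher and 10 lower.

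Apical matrix genes gave 6 members, and 5 of them were highest at 270 min. All 6 were higher at 180 min than at 60 min, where 28% of all genes tested were. At 225 min 5 were higher again, where 3.07% of all genes tested were. Between 270 and 330 min 0 passed, where 6.17% of all genes tested were higher and 1.49% lower, and nothing is read from that 0. Between 225 and 410 min 3 were lower and 0 higher, where 23.4% and 31.3% of all genes tested were. The fibrillin-related gene fbn-1, whose product belongs to the apical matrix of the embryo, had 59.5, 54.3 and 90.4 CPM at 60 min, 75.3, 125 and 113 at 120 min, 220, 158 and 171 at 180 min, and 570, 786 and 679 at 225 min. It then had 1196, 1129 and 1131 CPM at 270 min, 991, 871 and 820 at 330 min, 164, 140 and 79.4 at 410 min, and 18.5, 20.7 and 19.2 at 500 min. In CPM, every library of 270 min stood above every library of the other stages. Counts of fbn-1 reached 802 in 330 min replicate 3, where values may be compressed, so its order between 270 and 330 min is uncertain. The 410 min libraries had already fallen back below those of 225 min. The log2 change from 225 to 410 min was -2.02 (SE 0.231, edgeR adjusted p = 2.89e-09). This gene overlaps another, so its counts are uncertain.

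Neighbouring genes for leucine-rich repeat proteins of the apical matrix, let-4 and sym-1, were both members. In WBcel235, let-4 lies on the plus strand of chromosome X at 14577935 to 14580923 and sym-1 on the same strand at 14581622 to 14584378, 698 bases apart, and both overlap C44H4.4, so their counts are uncertain. Transcripts of let-4 numbered 0, 2.01 and 0 CPM at 60 min, 0, 2.66 and 1.71 at 120 min, 96.6, 134 and 129.4 at 180 min, and 206, 205 and 263 at 225 min. They numbered 250, 285 and 304 CPM at 270 min, 258, 292 and 314 at 330 min, 149, 156 and 182 at 410 min, and 55.6, 72.6 and 50.6 at 500 min. The libraries of 270 and 330 min overlapped, whereas 60 and 180 min were far apart, with 1 against 169 counts and a ratio whose 95% counting interval ran from 31.7 to 6980. For sym-1, levels were 459, 669.19 and 503 CPM at 180 min, 844, 1135 and 1051 at 225 min, 1096, 1247 and 1248 at 270 min, 883, 1434 and 879 at 330 min, and 696, 799 and 1050 at 410 min. Its libraries of 225 and 330 min overlapped those of 270 min, so sym-1 had a broad top rather than a sharp one.

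Cuticlin-like genes encode zona pellucida domain proteins related to components of the cuticle, and 3 of them, cutl-2, cutl-20 and cutl-29, were members. At 270 min cutl-2 had 521, 585 and 562 CPM, against 184, 116 and 183 at 225 min and 15.6, 6.48 and 14 at 410 min. None of those libraries overlapped, and the log2 change from 225 to 410 min was -3.45 (SE 0.366, edgeR adjusted p = 5.51e-10). Lower levels were found for cutl-20, which overlaps another gene, with 234, 225 and 202 CPM at 270 min, and for cutl-29, with 240, 190 and 279 CPM. Of 17 tested genes of the cuticlin-like family, 11 were higher and 3 lower at 410 than at 225 min, with a median log2 change of 4.16, and the 3 lower included cutl-2 and cutl-20. Over all genes tested, 31.3% were higher and 23.4% lower. In a wider list of 33 tested apical matrix and cuticle genes, 26 were higher and 1 lower in the same contrast, with a median log2 change of 3.36 against 0.07 over all genes tested. That list held fbn-1, let-4, sym-1 and phy-2, and fbn-1 was the 1 that was lower.

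Basement membrane genes gave 3 members, all higher at 180 than at 60 min and all higher again at 225 min. Over all genes tested, 28% and 3.07% were higher in these steps. Nidogen, a basement membrane protein that binds laminin and collagen IV and guides axons in this worm, is the product of nid-1. Its transcripts numbered 18.8, 33 and 20.6 CPM at 180 min, 144, 124 and 178 at 225 min, 265, 387 and 465 at 270 min, 533, 779 and 523 at 330 min, 326, 290 and 415 at 410 min, and 18.5, 28.8 and 22.7 at 500 min. All 330 min libraries stood above all 270 min libraries, by a log2 change of 0.76 (SE 0.217). The laminin alpha gene lam-3 had 852, 459 and 728 CPM at 270 min and 804, 547 and 581 at 330 min, which overlapped. Peroxidasin, an enzyme that acts on the matrix, is encoded by pxn-2, which had 103.5, 99.995 and 115.6 CPM at 330 min and overlaps another gene. Of 19 tested genes in the basement membrane list, 6 were higher and 0 lower at 330 than at 270 min, where 6.17% and 1.49% of all genes tested were. At 410 min 11 were higher and 4 lower than at 225 min, with pxn-2 among the lower, where 31.3% and 23.4% of all genes tested were.

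**Figure D3:**
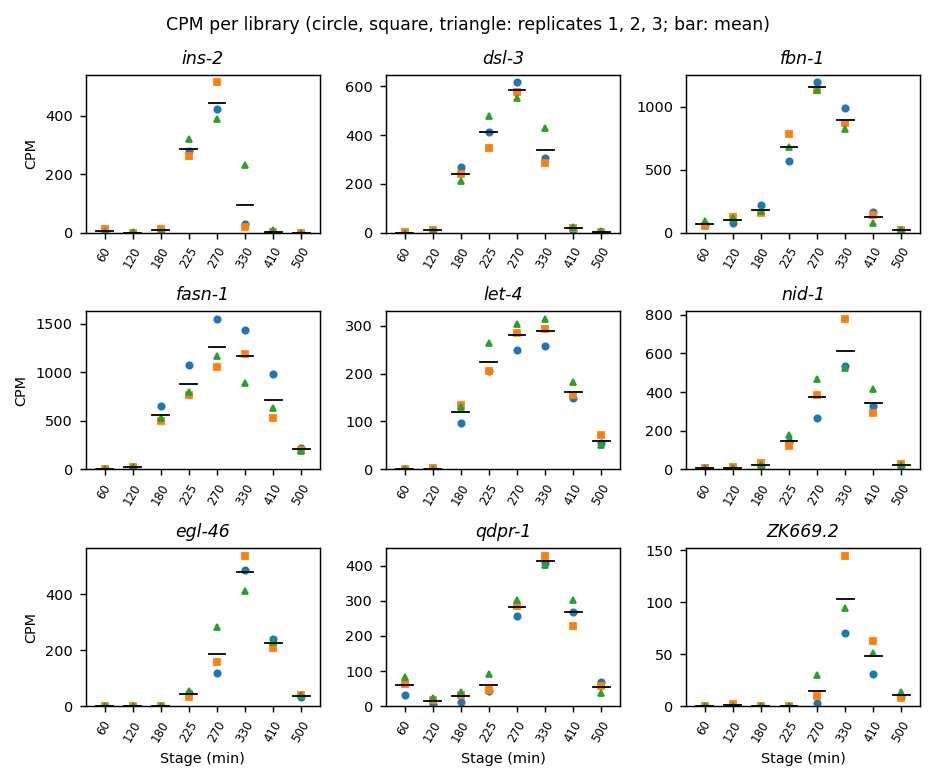
CPM of 9 members in each library against stage in min after the 4-cell stage; circles, squares and triangles are replicates 1, 2 and 3 and bars are stage means, with each panel on its own scale from 0. The top of ins-2, dsl-3 and fbn-1 is at 270 min, fasn-1 and let-4 have a broad top over both stages, and nid-1, egl-46, qdpr-1 and ZK669.2 are highest at 330 min.

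Collagen processing and proteoglycan genes gave 5 members, of which 4 were higher at 180 than at 60 min and 4 were higher at 225 than at 180 min. Over all genes tested, 28% and 3.07% were higher in these steps. The procollagen lysyl hydroxylase gene let-268, needed to make collagen IV, had 306, 250 and 268 CPM at 270 min and 328, 192 and 310 at 330 min. The prolyl 4-hydroxylase subunit gene phy-2, needed to make cuticle collagen, had 147, 172 and 159 CPM at 270 min and 244, 132 and 221 at 330 min. Both overlapped between the stages. The FK506-binding protein gene fkb-4 had 116, 99.3 and 83.8 CPM at 270 min and 168, 161 and 183 at 330 min, which did not overlap, and the log2 change was 0.84 (SE 0.262). Among proteins that carry chondroitin chains, cpg-20 had 356, 372 and 350 CPM at 270 min and 23.5, 34.6 and 9.34 at 410 min, and cpg-24 had 356, 282 and 318 CPM at 330 min and 110, 82.1 and 93.4 at 410 min. From 225 to 410 min cpg-20 fell by 2.55 on the log2 scale (SE 0.374, edgeR adjusted p = 4.53e-07), while cpg-24 had a log2 change of -0.60 that did not pass (adjusted p = 0.0522).

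Signals and surface proteins gave 5 members, 4 of them highest at 270 min. The insulin-like peptide gene ins-2 had 8.05, 13.5 and 2.94 CPM at 180 min, 278, 263 and 321 at 225 min, 425, 515 and 388 at 270 min, and 28.1, 21.1 and 230 at 330 min. It had 0, 2.16 and 9.34 CPM at 410 min, and 0 in all 3 libraries of 500 min. The 230 CPM came from the third replicate of 330 min, the library that lies towards 270 min, and all 330 min libraries were below all 270 min libraries. The log2 change between these stages was -2.12 (SE 0.524), and -4.06 without 330 min replicate 3. From 225 to 410 min the level was lower, with 377 against 3 counts and a ratio whose 95% counting interval ran from 35.6 to 504.

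The DSL family gene dsl-3 had 0, 2.01 and 0 CPM at 60 min, 11.6, 10.6 and 8.54 at 120 min, 271, 240 and 212 at 180 min, and 415, 347 and 481 at 225 min. It had 618, 579 and 554 CPM at 270 min, 305, 284 and 431 at 330 min, 10.4, 19.4 and 23.3 at 410 min, and 4.63, 2.30 and 6.98 at 500 min. The 180 min libraries far exceeded those of 60 min, with 333 counts against 1 and a 95% counting interval of 62.5 to 13700 for the ratio. At 330 min all libraries were below those of 270 min, by a log2 change of -0.74 (SE 0.191). From 225 to 410 min the level fell by 4.25 on the log2 scale (SE 0.291, edgeR adjusted p = 2.16e-14), with no overlap between libraries.

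A later peak was seen for zig-4, which encodes a secreted immunoglobulin domain protein that holds axons in place. It had 3.61, 7.88 and 9.62 CPM at 225 min, 3.12, 6.21 and 148 at 270 min, 397, 308 and 324 at 330 min, 23.5, 60.5 and 51.4 at 410 min, and 4.63, 4.61 and 0 at 500 min. The 148 CPM came from the third replicate of 270 min, the library that lies towards 330 min. The log2 change from 270 to 330 min was 2.57 (SE 0.627), and 6.07 without 270 min replicate 3. The hedgehog-related gene wrt-10 kept a flat top, with 1130, 1078 and 1100 CPM at 270 min, 1065, 1255 and 873 at 330 min, and 1101, 914 and 1270 at 410 min, before 41.7, 71.4 and 38.4 at 500 min. The adhesion molecule gene igcm-3, which overlaps another gene, had 365, 360 and 314 CPM at 270 min.

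Nuclear regulators gave 7 members, of which 6 were highest at 270 min. Of the 7, 3 were higher at 180 than at 60 min, where 28% of all genes tested were. At 225 min 6 were higher than at 180 min and 0 lower, where 3.07% and 2.57% of all genes tested were. The bZIP gene ces-2, which controls the death of the sister cells of the NSM neurons, had 0 CPM in all libraries of 60 min, 0, 2.66 and 3.42 at 120 min, 0, 1.50 and 0 at 180 min, and 105, 68.3 and 143 at 225 min. It had 883, 767 and 658 CPM at 270 min, 467, 447 and 531 at 330 min, 7.82, 12.96 and 9.34 at 410 min, and 13.9, 6.91 and 3.49 at 500 min. From 180 to 225 min counts went from 1 to 144, a ratio with a 95% counting interval of 27.8 to 6120. All 330 min libraries were below all 270 min libraries, by a log2 change of -0.63 (SE 0.2). This change passed in the main fit but not in 16 of 20 alternatives, DESeq2 and library size alone among them.

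The zinc finger gene egl-46, which acts in the differentiation of several neuron types, was listed with 0 counts in all 9 libraries of 60, 120 and 180 min. It had 46.9, 31.5 and 54.5 CPM at 225 min, 119, 159 and 283 at 270 min, 484, 537 and 412 at 330 min, 240, 207 and 229 at 410 min, and 32.4, 39.2 and 40.1 at 500 min. The 225 min level was at least 21.2-fold higher than that of 180 min, taking 3 counts over the stage as the floor. All 330 min libraries exceeded all 270 min libraries, by a log2 change of 1.37 (SE 0.247). From 225 to 410 min the level rose by 2.67 on the log2 scale (SE 0.308, edgeR adjusted p = 1.43e-08).

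The HMG box gene hmg-6 was seen over a short time, with 21.6, 34.2 and 33.7 CPM at 225 min, 125, 137 and 109 at 270 min, and 15.8, 28.9 and 54.2 at 330 min, and at most 3.00 CPM in any library of the other stages. All 330 min libraries were below all 270 min libraries, by a log2 change of -1.80 (SE 0.336). This gene overlaps another, as do mab-21 and zip-12. The sensory ray gene mab-21 had 2.68, 9 and 5.88 CPM at 180 min and 172, 186 and 174 at 270 min. The BED zinc finger gene bed-2 had 119, 155 and 161 CPM at 60 min and 699, 761 and 773 at 270 min, a high starting level beside most members. The cell division gene tcl-2 had 372, 319 and 332 CPM at 270 min.

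Metabolic enzymes gave 9 members, 7 of them higher and 1 lower at 180 than at 60 min. Over all genes tested, 28% were higher and 24.6% lower in that step. Isocitrate dehydrogenase, an enzyme of central carbon metabolism, is encoded by idh-1, which had the highest peak mean of all members in CPM, a count of 3′ ends that is not scaled by gene length. It had 228, 289 and 301 CPM at 60 min, 622, 680 and 503 at 180 min, 1492, 1345 and 1281 at 270 min, 1046, 1374 and 898 at 330 min, 363, 441 and 570 at 410 min, and 176, 207 and 120 at 500 min, and it overlaps another gene. Fatty acid synthase, which makes long-chain fatty acids, is encoded by fasn-1, which had 6.61, 6.03 and 9.36 CPM at 60 min, 23.2, 29.2 and 23.9 at 120 min, 652, 504 and 529 at 180 min, and 1552, 1051 and 1174 at 270 min. The 180 min libraries stood far above those of 60 min, by a log2 change of 6.08 (SE 0.377, edgeR adjusted p = 4.62e-15). The libraries of 270 and 330 min, the latter with 1435, 1192 and 892 CPM, overlapped.

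The acyl-CoA dehydrogenase gene acdh-2, a fatty acid oxidation enzyme, was an early member, with 0, 2.01 and 1.56 CPM at 60 min, 158, 191 and 103 at 180 min, 169, 131 and 147 at 225 min, 287, 194 and 235.09 at 270 min, and 111, 65.8 and 79.8 at 330 min. From 60 to 180 min counts went from 2 to 221, a ratio with a 95% counting interval of 32 to 954. All 330 min libraries were below all 270 min libraries, by a log2 change of -1.43 (SE 0.268). It overlaps another gene. In contrast, qdpr-1, which encodes the quinoid dihydropteridine reductase that recycles the cofactor of aromatic amino acid hydroxylases, had 33.04, 64.3 and 82.6 CPM at 60 min, 13.4, 31.5 and 41.2 at 180 min, 43.3, 47.3 and 91.3 at 225 min, 256, 285 and 302 at 270 min, and 407, 429 and 403 at 330 min. It was the enzyme gene that was lower at 180 than at 60 min, by a log2 change of -1.21 (SE 0.353, edgeR adjusted p = 0.00394), though the libraries of these stages overlapped. The call was lost without 60 min replicate 3, without replicate 2 of every stage and when scaled to the spike-ins. From 225 to 410 min, when it had 269, 229 and 303 CPM, it rose by 2.40 on the log2 scale (SE 0.288, edgeR adjusted p = 7.53e-09).

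Proteases and lysosomal proteins gave 4 members. The cathepsin F-like gene tag-196 had 384, 412 and 403 CPM at 270 min and 502, 603 and 444 at 330 min. These libraries did not overlap, but the log2 change of 0.42 (SE 0.197) did not pass (edgeR adjusted p = 0.238). The cathepsin Z-like gene cpz-1 had 628, 507 and 498 CPM at 270 min and 604, 516 and 474 at 330 min. The saposin-like gene spp-15, which overlaps another gene, had 106, 147 and 225 CPM at 270 min and 367, 308 and 311 at 330 min. All 330 min libraries of spp-15 exceeded those of 270 min, by a log2 change of 1.05 (SE 0.283). The alpha-mannosidase gene aman-1, a glycan-trimming enzyme, had 149, 192 and 195 CPM at 330 min.

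No role is stated here for the other 22 members, and 19 of them were highest at 330 min, against 17 of the 39 with a role. Of the 22, 13 were higher and 1 lower at 410 than at 225 min, where 31.3% and 23.4% of all genes tested were. The division by role was made after the members were seen. ZK669.2 had 3.12, 10.3 and 29.6 CPM at 270 min, 70.2, 145 and 94.1 at 330 min, 31.3, 62.7 and 51.4 at 410 min, and 9.26, 8.06 and 13.97 at 500 min, with 0 in all libraries of 180 and 225 min. All its 330 min libraries exceeded those of 270 min, by a log2 change of 2.66 (SE 0.446), and its 410 min level was at least 21-fold higher than that of 225 min. K08E5.5 had 0 in all libraries of 120 to 225 min, 12.5, 26.9 and 90.4 CPM at 270 min, 119, 84.2 and 134 at 330 min, and 62.6, 69.1 and 56.0 at 410 min, at least 27.4-fold higher than at 225 min. Its libraries of 270 and 330 min overlapped, the high 270 min value being that of replicate 3, and the log2 change was 1.29 (SE 0.39).

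Other members of this group had higher levels. R148.5 had 915, 743 and 847 CPM at 270 min, 954, 997 and 681 at 330 min, and 975.4, 678 and 719 at 410 min, a flat top over 3 stages. T28B8.1 had 734, 602 and 511 CPM at 270 min and 258, 232 and 354 at 330 min, with no overlap and a log2 change of -1.09 (SE 0.205). M03D4.4, which overlaps another gene, had 404, 399 and 417 CPM at 225 min, 315, 352 and 554 at 270 min, 554, 447 and 571 at 330 min, and 75.6, 75.6 and 74.7 at 410 min. C44C1.1 had 349, 579 and 459 CPM at 330 min. C06E7.4, which overlaps another gene, had 6.61, 38.2 and 34.3 CPM at 60 min, 8.05, 12 and 11.8 at 180 min, and 379, 463 and 421 at 330 min. It was lower at 180 than at 60 min by a log2 change of -1.49 (SE 0.554, edgeR adjusted p = 0.0242), with libraries that overlapped. That call was lost in 7 of 19 alternatives, spike-in scaling among them. Fits without replicate 2 or 3 of 60 min or replicate 1 or 2 of 180 min also lost it. Y45F10A.7, which overlaps another gene, had 0 in all libraries of 180 min, 25.24, 2.63 and 16.03 CPM at 225 min, 142, 155 and 142 at 330 min, and 93.9, 123 and 117 at 410 min. From 225 to 410 min it rose by 3.31 on the log2 scale (SE 0.402, edgeR adjusted p = 1.54e-08).

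The step from 225 to 410 min can be set beside the step from 270 to 330 min, whose levels the rule used. Of the 9 members that were higher at 330 min, nid-1, fkb-4, spp-15, egl-46, zig-4, Y45F10A.7, C44H9.7, K08E5.5 and ZK669.2, all 9 were also higher at 410 than at 225 min. Of all genes tested, 31.3% were higher and 23.4% lower at 410 than at 225 min. Because the rule used the levels at 270 and 330 min, nothing is read from how many members matched. Of the 7 that were lower at 330 min, ins-2, hmg-6, acdh-2, dsl-3 and ces-2 were also lower at 410 than at 225 min, while T28B8.1 (log2 change -0.25, adjusted p = 0.344) and F43G6.4 (-0.01, adjusted p = 0.974) did not pass there. M03D4.4 and pxn-2 were highest at 330 min but did not pass between 270 and 330 min. Both were lower at 410 than at 225 min, by log2 changes of -2.09 and -1.19. Of the calls between 270 and 330 min, ZK669.2, acdh-2, hmg-6 and T28B8.1 were kept with the 4 libraries richest in vitellogenin left out. Scaling to the spike-ins kept 2 of these calls, and leaving out the second replicates of all stages kept 0. Of 20 alternatives, 16 lost the call of ces-2, 13 that of fkb-4, 13 that of K08E5.5 and 11 that of nid-1. The other calls were lost in fewer.

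**Figure D4:**
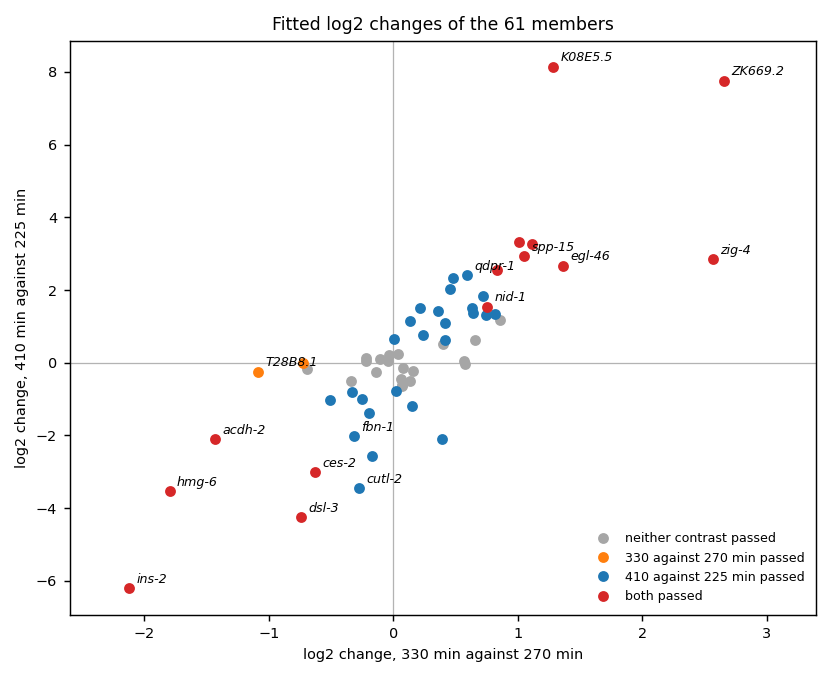
Fitted log2 change of each member from 270 to 330 min (horizontal) against that from 225 to 410 min (vertical); each point is 1 of 61 members, coloured by which contrasts passed at an adjusted p below 0.05. Members called higher at 330 min lie in the upper right and those called lower at 330 min in the lower left or near the horizontal line. Fitted values of K08E5.5, ZK669.2, ins-2 and hmg-6 on the vertical axis rest on a stage with 0 to 3 counts and their size is not a bound.

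Members were spread over all 6 chromosomes, with 11 on I, 11 on II, 8 on III, 10 on IV, 7 on V and 14 on X. The 14 on X were 23% of the members, beside 12.9% of the 4707 genes that reached 100 CPM at any stage and 16.5% of the 544 other genes that were highest at 270 or 330 min and reached 100 CPM. Apart from let-4 and sym-1, the closest pair of members was dsl-3 and cpg-24 on chromosome IV, 19026 bases apart.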

How the data were processed

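The authors deposited raw, unnormalized counts per gene for all 24 libraries; per the submitters' processing notes, HTSeq was used. The strand, annotation, build and aligner used for counting were not given in the sources used here. Gene positions and overlaps came from the WBcel235 annotation, to which 20083 of 20687 worm genes matched by identifier; the 92 spike-in rows were left out of library sizes and tests.

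Stage means for choosing members used CPM from worm totals. Tests used edgeR 4.0.16 in R 4.3.3 on counts of 8279 genes kept by filterByExpr (minimum count 10, minimum total 15), with TMM factors (0.78 to 1.171), stage as a factor over all 24 libraries (16 residual degrees of freedom), robust quasi-likelihood and Benjamini-Hochberg adjustment over all genes tested in each contrast; tests were two-sided at 0.05. The scripts were tested on simulated data. Against a stage with 0 counts, folds used a floor of 3 counts over the stage; with 1 to 3 counts, a 95% counting interval. Floors and intervals cover counting error only. CEL-Seq counts 3′ ends, so levels are not scaled by gene length and are not ranked between genes beyond CPM.

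The members and gene lists were chosen with earlier results of these data known, and the grouping by role was made after the members were seen. Named were the 10 members of highest mean at each peak stage, up to 3 called members per contrast and direction whose libraries did not overlap, members of the gene lists, and genes next to a threshold; other members, such as the rest of a role group, were named after their values were seen. Alternatives were DESeq2 1.42.0, its size factors, library size alone, spike-in scaling, other filters, a replicate block, replicates 1 and 2 summed, a correction for identifier collisions, the 6 libraries of a contrast, and libraries left out. Deviations of same-numbered libraries had positive correlations in all 3 pairs for 410 against 225 min (0.331, 0.274 and 0.111). The same held for 180 against 60 min (0.215, 0.055 and 0.081) and 225 against 180 min (0.304, 0.139 and 0.011). For 330 against 270 min the third pair had a negative correlation (-0.196).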

Additional observations from a re-analysis of the deposited data

How the results depend on the processing

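Depth limits low members: 1 count stood for up to 5.79 CPM, and a count of 0 allows up to 17.4 CPM in the shallowest library. The number of genes that met the rule was 61, 37 with TMM-scaled CPM, 78 when scaled to the spike-ins (56 shared with the 61), 62 after a correction for identifier collisions, 59 without the 4 libraries richest in vitellogenin, a choice made after seeing the data, and 56 to 65 leaving out 1 replicate number. Spike-in scaling called 2 members higher and 0 lower between 270 and 330 min; 0 were lower between 60 and 180 min, 14 were higher between 180 and 225 min and 13 were higher between 225 and 410 min. Between 270 and 330 min, no filter left 4 lower, and without the vitellogenin-rich libraries 1 was higher and 3 were lower. Between 60 and 180 min a fit to those 6 libraries left 1 lower. With a replicate block, 15 members were higher between 270 and 330 min. Deviations of same-numbered libraries of these stages had correlations of 0.372, 0.168 and -0.196, negative in the third pair only. The block moved no other count by over 1.5 times. Leaving out libraries or replicate numbers gave 0 to 11 higher and 0 to 7 lower between 270 and 330 min, 39 to 46 higher and 0 to 2 lower between 60 and 180 min, 15 to 36 higher and 0 to 0 lower between 180 and 225 min, and 20 to 24 higher and 12 to 19 lower between 225 and 410 min. No call of a named member changed sign under an alternative that was run; values that did not pass were not followed. Scaling moved the median of all genes, between 225 and 410 min from 0.07 to 0.28 with DESeq2 size factors and -0.23 with library size alone (log2). Apart from the effect of fewer libraries or genes in a fit, the cause of these shifts was not tested.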
